A study of Mus musculus with 8 samples.

Results

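The genes described here are 10 enamel matrix and ameloblast genes of the mouse, taken by name from a table of 20926 genes. They were *Amelx*, *Ambn*, *Enam* and *Mmp20*, grouped as secretory stage genes, and *Klk4*, *Amtn*, *Odam*, *Odaph*, *Wdr72* and *Slc24a4*, grouped as maturation stage genes. Of the 10, 9 were listed under these symbols and *Odaph* under its older symbol *Gm1045*. The values come from RNA-seq of mouse molars at postnatal day 3 (strain C57BL/6 by the labels, a mixed background by the study's methods), from which the epithelial tissue was removed before the mesenchyme was collected. The 4 control libraries came from Ezh2fl/fl mice, which carry floxed *Ezh2* alleles and no Cre. The 4 Osr2KI-Cre;Ezh2fl/fl libraries, named mutant here, came from mice in which an *Osr2* knock-in Cre recombines the same floxed alleles. The study describes this Cre as active in tooth mesenchyme and in the bone around the tooth, with the epithelium spared. It therefore expected epithelial cells, in which enamel genes are usually transcribed, to keep *Ezh2*. Whether each library came from a single mouse or from pooled mice is not stated in the sources used here, so p-values measure only the spread between these libraries. *Xist*, transcribed from the inactive X chromosome of females, and the Y-linked *Ddx3y* were both present in control libraries 1, 3 and 4 and mutant library 4, with *Xist* at 401 to 767 and *Ddx3y* at 31.2 to 56.9. Mutant libraries 2 and 3 held *Xist* (1955 and 2648) with *Ddx3y* under 1, and control library 2 and mutant library 1 held *Ddx3y* (82.6 and 73.0) with *Xist* under 1. Control libraries 1, 3 and 4 and mutant library 4 thus held transcripts of both sexes, so they cannot be taken as 1 mouse each. The marker genes of the sexes were unevenly spread over the libraries and the genotypes, and their part in the results was not tested. Both genes are named after their values were seen.

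Enamel is made by ameloblasts, epithelial cells that line the outer surface of the tooth crown. In the secretory stage they release amelogenin, ameloblastin and enamelin, which form the matrix in which crystals lengthen, and the protease Mmp20, which cleaves that matrix. In the maturation stage they degrade and take up what is left of the matrix and move calcium and other ions, so that the crystals thicken and harden. The question here was how much of each programme the libraries held, whether it differed between genotypes, and whether the genes of each stage moved together.

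The targeted gene, *Ezh2*, had values of 38.3 to 55.0 in control and 23.2 to 36.0 in mutant libraries, with no overlap. The mutant minus control difference was -0.46 on the log2 scale (limma adjusted p = 0.235, standard error 0.16). Between 48.3 M and 68.8 M reads were estimated per library, and a value of about 0.0129 to 0.019 corresponded to 1 read. Values carry no gene-length factor, so levels of different genes are ranked only after division by the summed length of their exons. Ratios and sums of values below are not corrected for length and are compared only between libraries. All 15 genes of a dental epithelium list had a value above 1 in each library, with *Krt5* between 827 and 1992 and *Krt14* between 329 and 938. Transcripts of epithelial genes were therefore present in the tissue labelled as mesenchyme. In these bulk samples, fewer cells of a type and less RNA per cell cannot be told apart.

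The secretory genes ranged from moderate to very high levels, and differed more widely between libraries of the same genotype than between the genotype means, although for *Ambn* the mutant libraries spanned only 4.21-fold. *Amelx* encodes amelogenin, the main protein of forming enamel. It lies on the minus strand of chromosome X of mm10 from 169176114 to 169187200. In control libraries 1 to 4 the normalized value was 349, 1377, 9733 and 16250.4, and in mutant libraries 1 to 4 it was 807, 376, 7818 and 316. Control libraries 3 and 4 and mutant library 3 were high, the other 5 were low, and the genotypes overlapped. Per kilobase of exon, *Amelx* was the most abundant of 20091 genes with a known length in control library 4, number 3 in control library 3 and in mutant library 3, and number 92 in mutant library 4. The 10 genes together made up 3.03% of all normalized signal in control library 4 and 0.0832% in mutant library 4.

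*Ambn* encodes ameloblastin, a matrix protein that also binds ameloblasts to the matrix. The control libraries 1 to 4 held 340.1, 493, 2666 and 6884, and the mutant libraries 1 to 4 held 419.8, 429.8, 1415 and 336. The 5 lower libraries lay between 336 and 493, and the same 3 libraries as for *Amelx* stood above them. *Enam* encodes enamelin, the largest of the enamel matrix proteins. Enamelin transcripts measured 37.1, 428, 3116 and 5146 in control libraries 1 to 4, then 56.4, 23.6, 2048 and 23.3 in mutant libraries 1 to 4. Control library 2 held an intermediate level, which *Ambn* did not show. *Mmp20* encodes enamelysin, the protease of the secretory stage. It had values of 31.8, 71.6, 199 and 252 in control and of 27.4, 11.5, 153 and 20.5 in mutant libraries 1 to 4, again with overlap of the genotypes and the same 3 libraries on top.

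**Figure D1:**
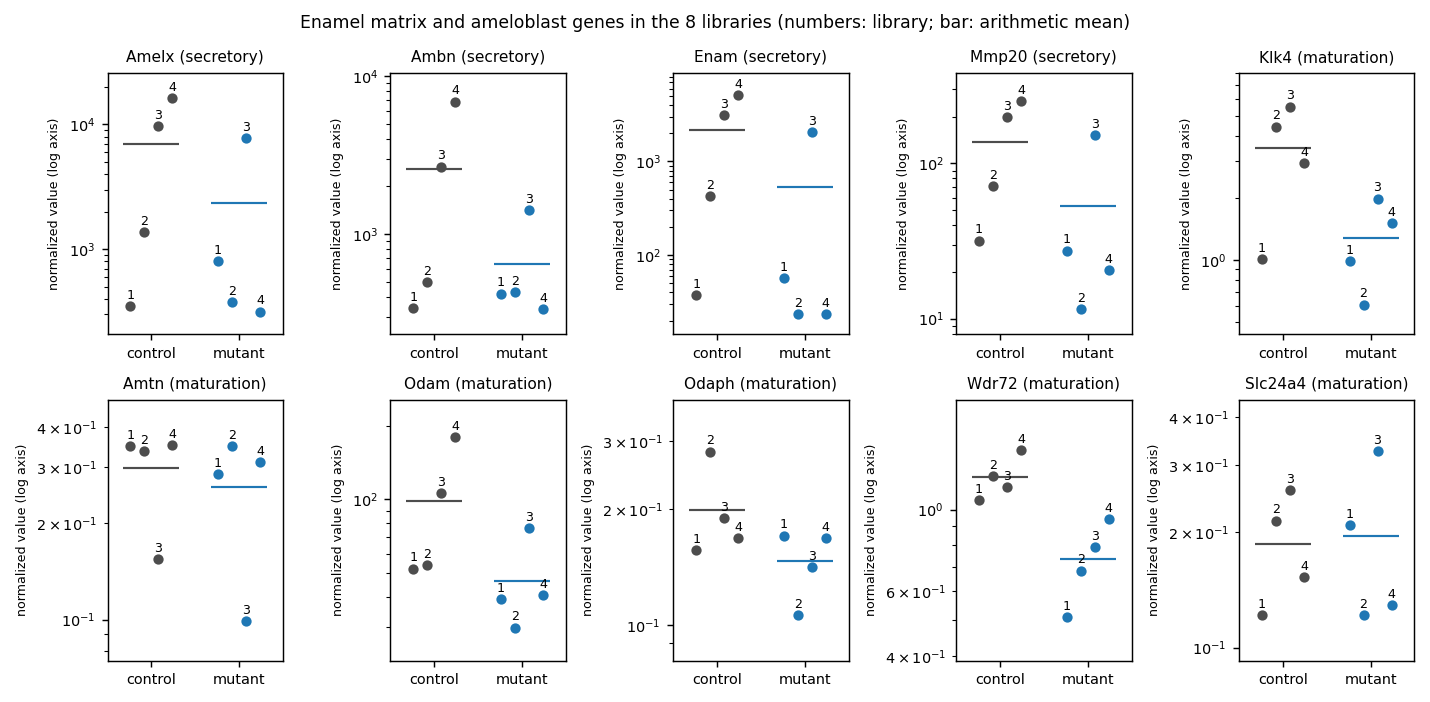
Normalized value of each of the 10 genes (log axis, a separate scale for each panel) in the 4 control and 4 mutant libraries, with library numbers beside the points and a bar at the arithmetic mean of each group. Control libraries 3 and 4 and mutant library 3 hold the 3 highest values of *Amelx*, *Ambn*, *Enam*, *Mmp20* and *Odam*, while *Wdr72* is the gene whose groups do not overlap.

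The highest library exceeded the lowest by 221-fold for *Enam*, 51.4-fold for *Amelx*, 21.8-fold for *Mmp20* and 20.5-fold for *Ambn*. On the log2(value + 1) scale, *Enam* ranked number 3 of the 14854 genes tested by its range, 7.73, and *Amelx* number 8, 5.68. The ranges of *Ambn* and *Mmp20* were 4.35 and 4.33, against a median of 0.49 and a 99th percentile of 2.21 over all genes tested. For *Amelx*, *Ambn*, *Enam*, *Mmp20* and *Odam* the order of the top libraries was the same, with control library 4 first, control library 3 next and mutant library 3 after it. Of all other genes tested, 4.97% had their 3 highest values in these same 3 libraries.

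The secretory genes did not vary by equal factors. The ratio of *Enam* to *Ambn* values within a library was 1.17 in control library 3, 0.748 in control library 4 and 1.45 in mutant library 3. It was 0.868 in control library 2, and between 0.0548 and 0.134 in the remaining 4 libraries. The ratio of *Amelx* to *Ambn* ran from 0.874 in mutant library 2 to 5.53 in mutant library 3. These ratios are free of library scaling, and they overlapped between genotypes.

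*Ambn* and *Enam* are plus-strand neighbours on mm10 chromosome 5, spanning 88455991 to 88468531 and 88487975 to 88506049, with 19.4 kb between them. *Amtn*, from 88376108 to 88385916, ends 70.1 kb before *Ambn*, and *Odam* lies from 87885029 to 87894174 on the same strand. Within the 621 kb from *Odam* to *Enam* the table lists 3 other genes, named here for their position after their values were seen. These were the casein gene *Csn3*, the lincRNA *BC037156* and the pseudogene *Gm43431*, and none had a value above 1.35 in any library. The other genes of the set lie elsewhere in mm10, all on the plus strand. *Odaph* spans 91987475 to 91995320 of chromosome 5, *Klk4* 43881160 to 43885804 of chromosome 7, *Mmp20* 7628231 to 7674979 and *Wdr72* 74110356 to 74283308 of chromosome 9, and *Slc24a4* 102128733 to 102267091 of chromosome 12. On chromosome 5, high and near-absent transcripts therefore stood side by side.

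Because the secretory genes were high in the same libraries, the sequences before their starts are shown for comparison. RefSeq windows (GRCm38.p6) were found for 9 of the 10 genes, all but *Wdr72*. The lines give the 150 bases before the transcript start of 6 genes, 5′ to 3′ on the gene's strand, and capitals mark the motif TGATTGG. The opposite strand of this motif holds the CCAAT box, a common promoter element. The motif was chosen after the sequences were seen.
Amelx (chrX:169187210-169187359, minus strand): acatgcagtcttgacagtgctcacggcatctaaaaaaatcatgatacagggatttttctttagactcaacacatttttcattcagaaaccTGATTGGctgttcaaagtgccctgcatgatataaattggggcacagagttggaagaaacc
Ambn (chr5:88455841-88455990, plus strand): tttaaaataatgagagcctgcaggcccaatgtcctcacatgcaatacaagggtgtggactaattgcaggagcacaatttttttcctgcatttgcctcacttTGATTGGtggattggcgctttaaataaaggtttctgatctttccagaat
Enam (chr5:88487825-88487974, plus strand): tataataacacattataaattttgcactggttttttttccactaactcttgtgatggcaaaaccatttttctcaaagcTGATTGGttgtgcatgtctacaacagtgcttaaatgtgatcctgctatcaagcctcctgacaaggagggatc
Odam (chr5:87884860-87885009, plus strand): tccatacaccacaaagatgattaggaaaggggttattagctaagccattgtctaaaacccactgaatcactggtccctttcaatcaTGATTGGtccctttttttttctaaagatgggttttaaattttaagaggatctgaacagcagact
Amtn (chr5:88375958-88376107, plus strand): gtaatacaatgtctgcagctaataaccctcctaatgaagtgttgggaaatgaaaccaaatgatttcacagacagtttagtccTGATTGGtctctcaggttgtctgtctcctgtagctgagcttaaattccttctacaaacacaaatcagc
Mmp20 (chr9:7628081-7628230, plus strand): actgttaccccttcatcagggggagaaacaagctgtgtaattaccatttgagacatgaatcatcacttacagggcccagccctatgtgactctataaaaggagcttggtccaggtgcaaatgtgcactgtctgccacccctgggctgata

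TGATTGG stood in the same orientation before *Amelx*, *Ambn*, *Enam*, *Odam* and *Amtn*, with its first base 60, 49, 72, 64 and 68 bases before the start. It was not found in the 250 bases before *Mmp20*, *Klk4*, *Odaph* or *Slc24a4*. On either strand it was present in 7.23% of all 32851 promoter windows of this length, and in 0.801% in the same orientation with its first base 72 to 49 bases before the start. That interval was set by the 5 genes themselves. The shorter ATTGG, which TGATTGG contains, was present in 33.8% of windows and in 6 of the 9 genes. TATAAA was found before *Amelx*, *Enam* and *Mmp20* and in 12.4% of windows, TGTGGT before *Odam* and *Odaph* (14% of windows), TAATTG before *Ambn* and *Odam* (7.17%) and TAATCC before *Slc24a4* (6.25%), both strands searched. The genes with TGATTGG included both the abundant *Amelx* and *Amtn*, which was close to the detection limit.

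**Figure D2:**
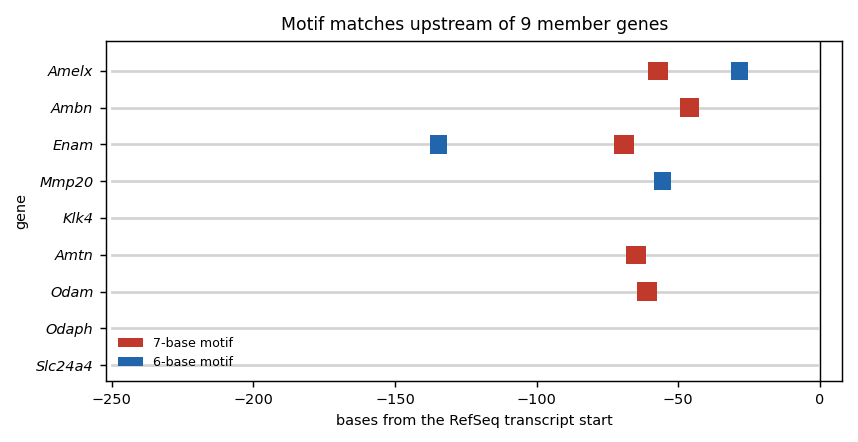
Positions of the motif TGATTGG (7 bases, red) and of TATAAA (6 bases, blue) in the 250 bases before the RefSeq transcript start of 9 of the genes, on either strand, with the distance from the start in bases on the horizontal axis. The red marks of 5 genes begin 72 to 49 bases before the start.

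The maturation genes were low, with the exception of *Odam*. *Odam* encodes a secreted protein found at the ameloblast surface in maturation and in the epithelium that seals the gum to the tooth. It measured 52.0, 53.9, 106 and 180.2 across control libraries 1 to 4, then 39.0, 29.9, 76.0 and 40.5 in mutant libraries 1 to 4. It followed the order of the secretory genes at the top but with a span of 6.04-fold. *Klk4* encodes the protease that clears the matrix in maturation. Its values were 1.01, 4.41, 5.52 and 2.95 in control and 0.986, 0.607, 1.98 and 1.51 in mutant libraries 1 to 4. Unlike *Amelx*, it was higher in control libraries 2 and 3 than in control library 4, and it rested on 39 to 328 estimated reads.

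*Wdr72* encodes a protein needed for vesicle traffic and matrix uptake in maturation ameloblasts. It had values of 1.06, 1.23, 1.15 and 1.45 in control and of 0.512, 0.682, 0.792 and 0.942 in mutant libraries 1 to 4. All 4 mutant libraries were below all 4 control libraries, and mutant library 4, with the lowest *Amelx*, was the highest of the mutant libraries. The remaining 3 genes were near the limit of detection. *Amtn*, which encodes amelotin of the maturation stage basal lamina, had 6 to 24 estimated reads per library. *Odaph*, which encodes a phosphoprotein that promotes mineral formation, had 6 to 20. *Slc24a4*, which encodes an exchanger that moves calcium toward enamel, had 6 to 22. Per kilobase of exon the mean value over all 8 libraries was 4633 for *Amelx*, 846 for *Ambn*, 248 for *Enam*, 52.5 for *Odam* and 29.1 for *Mmp20*. It was 1.90 for *Klk4*, 0.273 for *Amtn*, 0.131 for *Wdr72*, 0.0492 for *Odaph* and 0.0423 for *Slc24a4*. By these means *Odam* lay above *Mmp20* and below the other secretory genes. In single libraries *Odam* ranked above *Mmp20* per kilobase in all 8. It also ranked above *Enam* in control library 1 (number 970 against 6022) and in mutant libraries 1 (1538 against 4337), 2 (1998 against 7962) and 4 (1384 against 8068), so its place below *Enam* rests on the other 4 libraries.

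*Amtn* was lowest in a pair of the libraries rich in *Amelx*. It was 0.155 in control library 3 and 0.099 in mutant library 3, and between 0.284 and 0.352 in the other 6 libraries, among them control library 4 with the highest *Amelx*. At this depth these values rest on so few reads that the order carries a large counting error. *Slc24a4* was highest in mutant library 3 (0.325) and control library 3 (0.258), and *Odaph* was highest in control library 2 (0.282). The groups overlapped for all 3 genes.

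**Figure D3:**
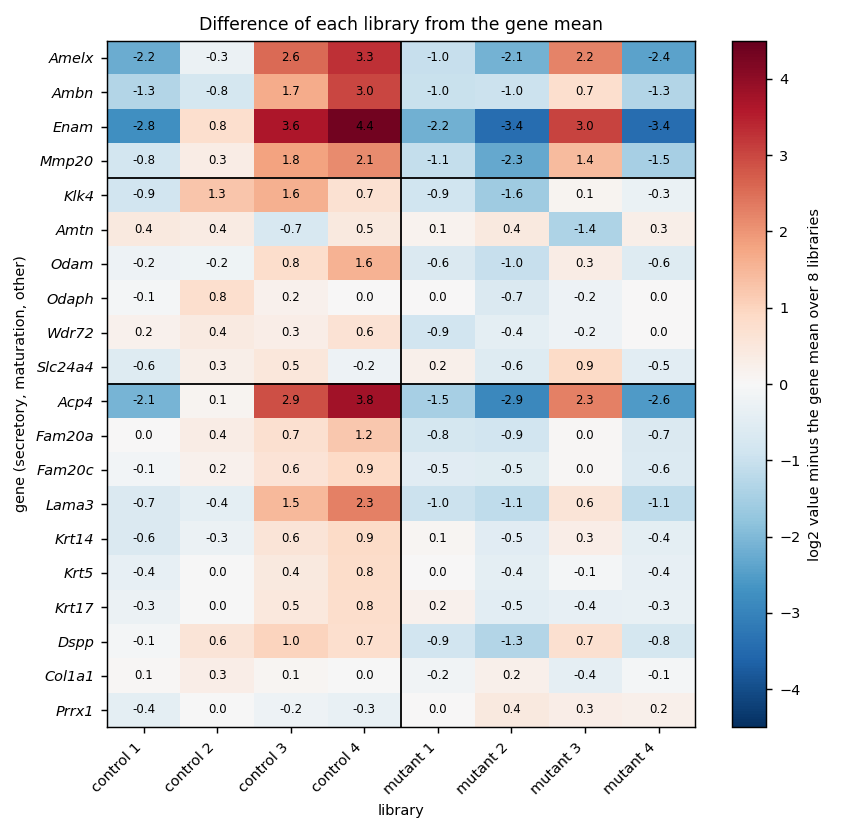
Difference of each library's log2 value from the mean of the gene over the 8 libraries, printed in each cell, for the secretory genes (top 4 rows), the maturation genes (next 6 rows) and 10 genes for comparison. *Enam* runs from -3.4 in mutant libraries 2 and 4 to 4.4 in control library 4, while *Krt5* stays between -0.4 and 0.8. *Lama3* was chosen after its values were seen.

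The mean log2(value + 1) of the 6 maturation genes minus that of the 4 secretory genes describes the balance of the stages within a library. Control libraries 1 to 4 had -5.36, -6.84, -9.08 and -9.82, and the mutant libraries 1 to 4 had -5.97, -5.21, -8.85 and -5.03. The group means were -7.77 ± 2.05 and -6.26 ± 1.77 (SD, n = 4 each), a difference of 1.51, below the pooled SD between libraries of 1.92. Without control library 1 or mutant library 3 the difference was 2.32 or 2.38, above that SD. *Amtn*, *Odaph* and *Slc24a4* hardly move on this scale, so the balance mostly restates the level of the secretory genes. Across libraries the secretory mean ranged from 6.39 to 11.8 and the maturation mean from 1.19 to 1.94.

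Between the genotypes, the mean values of the mutant libraries were lower for 9 of the 10 genes. *Amelx* had means of 6927 ± 7503 in control and 2329 ± 3666 in mutant molars (SD, n = 4 each), and *Enam* means of 2182 ± 2404 and 538 ± 1007. For *Ambn* they were 2596 ± 3050 and 650.1 ± 512, for *Mmp20* 138 ± 104 and 53.1 ± 66.9, and for *Odam* 98.0 ± 60.2 and 46.4 ± 20.3. The SD was larger than the mean in control molars for *Amelx*, *Ambn* and *Enam*. *Klk4* had means of 3.47 ± 1.95 and 1.27 ± 0.601, and *Wdr72* of 1.22 ± 0.168 and 0.732 ± 0.181. *Slc24a4* was the exception, with 0.187 and 0.196.

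Limma's test on log2(value + 1) called 0 of the 10 genes at an adjusted p under 0.05. It called 2.07% of the 14854 genes tested (0.512% as lower and 1.56% as higher in mutant molars), and without a filter on low values 1.56% of 20926. With limma's array weights, which weight each library, it called 5 of the 10 and 4040 genes in all. Genes had to reach 1 in 4 or more libraries, which left out *Amtn*, *Odaph* and *Slc24a4*. *Wdr72* passed only through its 4 control values, so the number that passed is no support for a direction. Without that filter 9 of the 10 log2 fold changes were negative, against 44.5% of all 20926 genes (45.9% of the genes tested), and the median of the 10 was -0.92. These signs are not separate observations, since *Amelx*, *Ambn*, *Enam*, *Mmp20* and *Odam* share their highest libraries. Those of *Amtn* and *Odaph* rest on 6 to 24 and 6 to 20 estimated reads per library. *Enam* had the lowest log2 fold change of all genes tested, ahead of the Y-linked *Ddx3y*, *Eif2s3y* and *Kdm5d* at ranks 2 to 4. These Y-linked genes are named after their values were seen, and the part of library spread in the ranks was not tested. The log2 fold change of *Enam* was -2.97, with a standard error of 1.77 and a 95% interval from -6.93 to 1.00 (limma adjusted p = 0.561). *Amelx* (-1.67, from -4.65 to 1.32, adjusted p = 0.714 from limma), *Mmp20* (-1.67, from -3.52 to 0.19, adjusted p = 0.453) and *Ambn* (-1.29, from -3.31 to 0.73, adjusted p = 0.652) also had intervals that include 0. These intervals are wide enough to hold falls of several log2 units as well as no change. Without control library 1 the unadjusted limma p of the 4 secretory genes was 0.0195 to 0.0495. Without mutant library 3 it was 0.0194 for *Enam*, 0.00754 for *Mmp20*, 0.0607 for *Amelx* and 0.106 for *Ambn*. The adjusted p was 0.146 or above in each case. With any other library left out, the unadjusted limma p of these 4 genes was 0.0795 to 0.537.

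At an unadjusted p under 0.05, 3 genes were passed by limma, all lower in mutant molars, where 4.87% of all genes tested were lower and 13.1% passed in either direction. This count was 7 without control library 1, 5 without mutant library 3, and 2 without control library 2 or 4 or mutant library 4. It was 1 without control library 3 or mutant library 1 or 2. With the replicate number as a block it was 5, with robust moderation 2, and with a filter at a value of 10 it was 1. Array weights gave 7, where 6045 of all genes tested passed, against 1953 in the main fit. With every library the 3 genes were *Klk4* (log2 fold change -0.89, standard error 0.34, limma adjusted p = 0.294), *Odam* (-0.96, standard error 0.41, limma adjusted p = 0.348) and *Wdr72* (-0.36, standard error 0.11, limma adjusted p = 0.149). *Wdr72* reached the filter only through its control values, so its place in this count and its lack of overlap are no support for a direction. *Wdr72* was the 1 gene of the 10 with no overlap of the groups (p = 0.0286 by a two-sided exact permutation test, and no lower p is possible with 4 against 4 libraries). Of all genes tested, 2.77% were lower in mutant molars with no overlap and 5.76% higher. The exact permutation tests of the other 9 genes gave p from 0.0857 for *Klk4* to 0.943 for *Slc24a4*, not adjusted for the 10 tests. The filter left out 3 genes, whose log2 fold changes without it were -0.04 for *Amtn*, -0.06 for *Odaph* and 0.01 for *Slc24a4*, with limma adjusted p from 0.703 to 0.977. Leaving out control library 1, the control library with the lowest *Amelx*, brought *Klk4* to -1.23 with an adjusted p of 0.0423 from limma. Without control library 2 or 3 or mutant library 1 or 2, the unadjusted limma p of *Klk4* was 0.0664 to 0.0818, and its adjusted p was 0.384 to 0.679. Without control library 3 or 4 or mutant library 1, 2 or 4, the unadjusted limma p of *Odam* was 0.0773 to 0.11. The log2 fold changes of the low genes depend on the pseudocount, with -1.34 for *Klk4* and -0.77 for *Wdr72* without one and -0.41 and -0.12 with a pseudocount of 5.

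**Figure D4:**
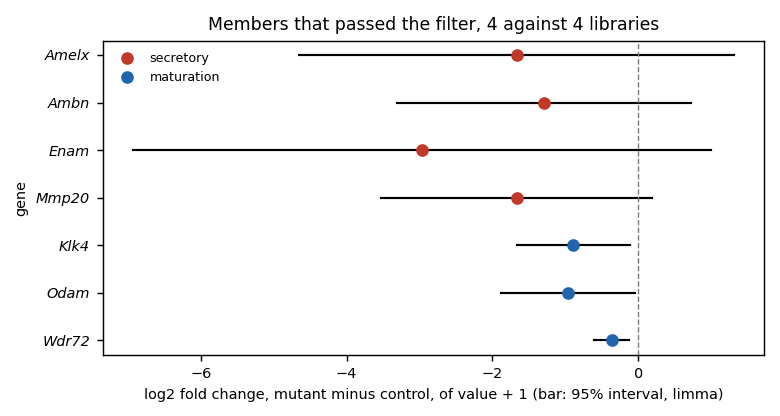
Log2 fold change of value + 1 (mutant minus control) of the 7 genes that passed the filter, with 95% intervals from limma over 4 control and 4 mutant libraries. The intervals of the 4 secretory genes cross 0, those of *Klk4*, *Odam* and *Wdr72* do not, and no gene had an adjusted p under 0.05. *Wdr72* passed the filter only through its 4 control values.

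Other genes that ameloblasts use were examined as lists. Of 12 further genes of enamel formation, 0 were called by limma in either direction (2.07% of all genes tested were) and 5 had an unadjusted p under 0.05, all lower, as 4.87% of all genes tested were. Their median log2 fold change was -0.58, against 0.01 for all genes tested. *Acp4*, an acid phosphatase gene mutated in inherited enamel defects, was 1.62, 7.42, 50.9 and 93.2 in control and 2.42, 0.911, 32.6 and 1.17 in mutant libraries 1 to 4. Its profile was the nearest to that of *Amelx* among all genes tested. The root mean square difference between their centred log2(value + 1) values over the 8 libraries was 0.28, against 0.86 to 0.99 for *Mmp20*, *Ambn* and *Enam*, which stood sixth to eighth. The others among the nearest 10 were *Clu*, *Bnc1*, *Ctnna2*, *Fxyd4*, *Calb1* and *Gal3st4*, at 0.67 to 1.03. *Calb1* encodes a calcium-binding protein abundant in ameloblasts, and had values from 164 to 1208. *Fam20a*, a partner of the kinase that phosphorylates enamel proteins, had values of 27.7, 35.0, 44.9 and 63.0 in control and 16.0, 15.1, 28.3 and 17.3 in mutant libraries 1 to 4 (log2 fold change -1.09, standard error 0.26, limma adjusted p = 0.0751). The kinase itself, *Fam20c*, had a log2 fold change of -0.78 (limma adjusted p = 0.122). The remaining abundant genes of this list differed less, with log2 fold changes of -0.15 for *Stim1*, -0.23 for *Cnnm4* and -0.20 for *Fam83h* and limma adjusted p from 0.312 to 0.641. The 1 positive value was 0.08 for *Orai1*, named after its value was seen.

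Of 9 ameloblast transcription factors, 1 fell and 0 rose by limma, where 0.512% of all genes tested fell and 1.56% rose. *Sp6*, a factor needed for ameloblast differentiation, was 692, 679.6, 759 and 825 in control and 578, 509, 531 and 551 in mutant libraries 1 to 4, with no overlap (log2 fold change -0.44, standard error 0.09, limma adjusted p = 0.035). Mutant library 3, rich in *Amelx*, was the second lowest in *Sp6*, whose span over all libraries was 1.62-fold. *Msx2*, *Dlx3*, *Satb1* and *Foxo1* had log2 fold changes between -0.14 and 0.003. *Runx2*, a factor of bone cells as well as ameloblasts that is named after its values were seen, was higher in mutant molars with no overlap (log2 fold change 0.41, limma adjusted p = 0.0678). Of 12 genes of ion transport in maturation, 11 were measured and 10 tested, and 2 fell (against the same 0.512%), both encoding proteins that also work in other cells. The groups did not overlap for 3 of the 10, all lower in mutant molars, where 2.77% of all genes tested were. These were *Car2*, *Cftr* and the anion exchanger gene *Slc4a2*, which was not called. *Car2*, a carbonic anhydrase also abundant in osteoclasts and blood cells, fell by 0.72 on the log2 scale (standard error 0.12, limma adjusted p = 0.0164). *Cftr*, a chloride channel of epithelia, fell by 0.79 (standard error 0.15, limma adjusted p = 0.0334). With the replicate number as a block, *Sp6*, *Car2* and *Cftr* had limma adjusted p of 0.156, 0.0595 and 0.069. Over all lists other than the 10 genes, limma called 4 genes lower (these 3 and *Dsp*, an epithelial gene). That count was 0 without control library 2 or without control library 3, 1 without control library 4, 3 without mutant library 1, and 2 without mutant library 2 or without mutant library 4. *Slc4a4*, a bicarbonate carrier, was highest in control library 4 (127), mutant library 3 (84.4) and control library 3 (71.8), as *Amelx* was, and lay between 46.0 and 54.8 in the other 5.

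Markers of the other cells in the tissue moved in part with these genes, and their part in the results was not tested. Of the 15 dental epithelium genes, all had negative log2 fold changes (median -0.48), as 45.9% of all genes tested had. At an unadjusted limma p under 0.05, 6 were lower, as 4.87% of all genes tested were. By adjusted p 1 was called lower, against 0.512% of all genes tested. This was *Dsp*, which encodes the desmosomal protein desmoplakin (-0.59, limma adjusted p = 0.0282, and 0.106 with the replicate block). The summed value of the 15 genes was 3486 to 7508 in control and 3162 to 4273 in mutant libraries, a span of 2.37-fold. The 4 secretory genes summed to 758 to 28532 in control and 696 to 11433 in mutant libraries, a span of 41.0-fold. The ratio of *Amelx* to *Krt14* values was 17.3 in control library 4, 1.06 in control library 1 and under 1 in mutant library 4, so *Amelx* differed between libraries by more than this keratin did. The laminin gene *Lama3*, named after its values were seen, had its 3 highest values in the same 3 libraries as *Amelx* and a span of 10.7-fold. Of the 15 genes, 6 had their 3 highest values in those libraries, against the 4.97% of all genes.

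**Figure D5:**
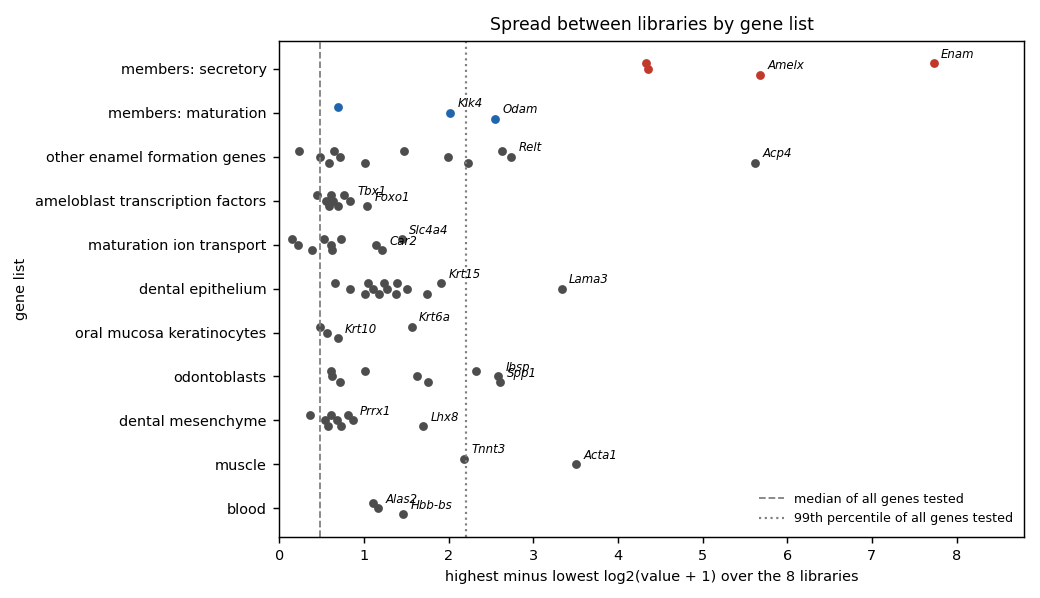
Difference between the highest and the lowest log2(value + 1) over the 8 libraries (horizontal axis) for the tested genes of each list (1 dental epithelium gene is not shown), the 2 widest of those shown named, with lines at the median (0.49) and the 99th percentile (2.21) of all 14854 genes tested. The secretory genes lie from 4.33 to 7.73, and *Klk4* and *Odam* at 2.02 and 2.55.

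*Dspp*, which encodes the main matrix protein of odontoblasts and is also made briefly by young ameloblasts, had values of 1329, 2091, 2799 and 2334 in control and 770.2, 556, 2328 and 799 in mutant libraries 1 to 4. It was thus high in the 3 libraries rich in *Amelx* and also in control library 2. The mutant mean was lower by a log2 fold change of -1.13 (limma adjusted p = 0.256). Of the 10 odontoblast genes 9 were tested, of which 1 rose, *Ibsp*, a bone sialoprotein gene also used by cells of bone and cementum, and 0 fell (1.56% and 0.512% of all genes tested), and the summed values were 13276 to 16568 in control and 11633 to 13663 in mutant libraries. The 9 dental mesenchyme genes spanned 1.26-fold in their sum, from 3346 to 3930 in control and from 3217 to 4051 in mutant libraries, with mutant library 3 and control library 3 lowest. That sum is mostly *Vim* and *Col3a1*, and the median log2 fold change of the 9 genes was 0.25, opposite in sign to that of the epithelial genes. Of the 9, 1 rose, *Lhx8* (1.56% of all genes tested rose), and 4 had an unadjusted limma p under 0.05, all higher, as 8.27% of all genes tested were. The groups did not overlap for *Lhx8*, *Prrx1* and *Twist1*, all higher in mutant molars, as 5.76% of all genes tested were. *Twist1* is named after its values were seen, and the part of this shift in the results was not tested. Of 7 keratinocyte genes of the oral mucosa, *Krt4*, *Krt13* and *Krt16* were under 1 in each library, and the sum was 17.5 to 35.1 in control and 16.4 to 22.1 in mutant libraries. The sums of 4 muscle genes (1.29 to 25.9) and 4 blood genes (197 to 484) were not ordered as *Amelx* was, although the muscle sum was highest in control library 4.

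*Amelx* lies on the opposite strand within *Arhgap6*, with no shared exon, and *Arhgap6* had values of 2.12 to 4.17. *Mmp20* overlaps the antisense transcript *AV064505*, again with no shared exon, for which 0 to 14 reads were estimated. From lowest to highest, the libraries had the same order for *Arhgap6* as for *Amelx*, with a span of 1.97-fold. *AV064505* was highest in mutant library 3, control library 4 and control library 3. Whether reads were counted by strand is not given in the sources used here, and the reason for the shared order was not tested. At most 272 reads were estimated for *Arhgap6*, against at least 20086 for *Amelx*.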

How the data were processed

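RNA-seq values of 8 molar libraries, 4 control and 4 mutant, were taken from 1 table, with groups and library numbers from the sample titles. By the paper's methods, single-end 75-cycle reads were mapped to mm10 by the authors with TopHat and scaled as RPKM. The methods state 4 molar samples per group but sequencing of 3 pairs, while the table holds 4 libraries per group. The submitters' processing notes list CASAVA 1.8.2, STAR 2.5.3a and Partek, so the tools behind the table are uncertain. The deposited values were treated as a normalized signal, not as RPKM or counts, because the 75th percentile is nearly equal in every library (38.455 to 38.463), no value is 0, there is no gene-length factor, and 62.5% of low values (under 20 times the smallest) are whole multiples of the library's smallest value (within 0.02 of 1 read). Estimated reads are the value divided by that smallest value, minus 1.

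Limma 3.58.1 in R 4.3.3 (lmFit, eBayes with trend) was fitted to log2(value + 1) of the 14854 genes that reached 1 in 4 or more libraries, with Benjamini-Hochberg adjustment. A run on simulated data gave every gene the same dispersion, so it does not cover genes as variable as the secretory ones. Fold changes on this scale understate those of low genes. Exact permutation tests used the 70 arrangements of the libraries. Positions and exon lengths come from GENCODE M21 and promoters from RefSeq (GRCm38.p6, the build of mm10). The alternatives were other pseudocounts, filters and scalings, 3 other forms of the limma fit, a replicate block and leaving out each library. The members and gene lists were chosen with earlier results of these data known. Named genes are the 10 members, *Ezh2*, genes overlapping a member, up to 5 of each list by mean value and any called, and the 10 genes nearest to *Amelx*. Others are marked. The values of 1 dental epithelium gene are not reported here, although the counts and sums of its list include it. Plots were drawn with matplotlib 3.10.9 in Python 3.11.15.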

Additional observations from a re-analysis of the deposited data

Results flagged for a closer look

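Of 22 groups of 4 libraries examined (the 10 genes and *Ezh2* in each genotype, on the log2(value + 1) scale), 1 library stood far from the other 3 in 2, where chance gives about 1.1. The low value of *Amtn* in control library 3 (0.155) lay below the remaining controls (0.335 to 0.352). The value of *Ezh2* in control library 1 (55.0) lay above the remaining controls (38.3 to 39.6).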

How the results depend on the processing

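The log2 fold changes of *Amelx*, *Ambn*, *Enam*, *Mmp20*, *Klk4*, *Odam* and *Wdr72* stayed negative under every alternative in which they were fitted, and 0 of these genes were called with another pseudocount, filter or scaling, without the trend or with robust moderation. With limma's array weights (9.66 for mutant library 4), 5 of the 10 genes were called (*Amelx* at -3.33, *Enam* at -5.18, *Mmp20* at -2.42, *Klk4* at -1.04 and *Odam* at -1.01), with 4040 genes in all (53.6% higher in mutant molars, against 75.3%) and 45 other listed genes. With a filter at a value of 10, 119 of 10283 genes were called. Over the libraries left out in turn, the calls ranged from 0 to 1 among the 10 genes (*Klk4*, without control library 1), from 129 to 429 in all against 308 with every library, and from 2 to 6 among other listed genes, of which 0 to 4 were lower in mutant molars. Without control library 2, 3 or 4 or mutant library 2 or 4, 158, 129, 175, 176 and 166 genes were called in all. The log2 fold changes ranged from -2.69 to -0.85 for *Amelx*, from -4.46 to -2.02 for *Enam*, from -1.94 to -0.50 for *Ambn* and from -2.41 to -1.20 for *Mmp20*, with the smallest falls without control library 4 for *Amelx*, *Ambn* and *Enam*. The difference in stage balance ranged from 0.83 to 2.38 over the libraries left out, and from 1.29 to 1.59 over the other settings. Of the 10 genes nearest to *Amelx*, 7 stayed among them with a pseudocount of 5 or none, and 8 to 10 under the other settings.

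Same-numbered libraries deviated from their group means with correlations of -0.34, -0.08, 0.22 and -0.43 across genes. These values cannot settle whether same-numbered libraries were paired. The replicate block left 73 genes called in all (87.7% higher), 2 other listed genes and 0 of the 10. With it, 5 of the 10 genes had an unadjusted limma p under 0.05, among them *Enam* (0.0464) and *Mmp20* (0.018).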
